A study of Mus musculus with 6 samples.

Results

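The cytosolic ribosomal protein genes encode the protein parts of the ribosome of the cytoplasm. They were chosen by symbol: a probe set, which is the group of array probes summarised as one value, had to carry 1 symbol made of Rpl or Rps and a digit, or Rplp0, Rplp1, Rplp2 or Rpsa. Kinases of the Rps6k kind, symbols with -ps and like genes such as Rpl22l1 were left out, and so was Rps19bp1, which shares the letters but encodes a partner of a ribosomal protein. This gave 43 genes of the 18193 genes measured under a single symbol, 21 of the small and 22 of the large subunit, and all 43 were kept because no filter on low values was applied. Where a gene had several probe sets, the brightest by mean log2 value stood for it. A further 29 symbols of the same kind, Rpl3, Rpl5, Rpl10, Rpl23 and Rplp1 among them, were found only on probe sets that carry several symbols, so the 43 genes are part of the family.

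Regulatory T cells (Tregs), which restrain other T cells and depend on the factor Foxp3, were sorted from the spleens of female mice of the diabetes-prone NOD strain, and RNA of 1 mouse was hybridised to each of 6 Affymetrix M430v2 arrays. All mice carried the BDC2.5 T cell receptor transgene, whose receptor recognises a pancreatic islet antigen, and the Foxp3GFP reporter, and the gate took GFP+ CD4+ cells without B220, CD8a or CD11b/c on their surface. The 3 treated mice were RAG1o/o, so they rearranged no receptor genes of their own. They had received KT3, an anti-CD3 monoclonal antibody, by vein at 37.5 µg on 5 days in a row from an age of 17 days, and were 28 or 29 days old at the sort, which the labels put at 11 or 12 days after treatment. The 3 untreated mice were RAG1+/o and 28 or 29 days old. Treatment and RAG1 genotype differed together, so their parts in any difference cannot be told apart. Levels are log2 of RMA intensities, differences are treated minus untreated, and ± is the SD over the 3 mice of a group.

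A ribosome joins a small subunit, which reads the mRNA, to a large subunit, which forms the peptide bond, and its proteins are needed in near equal amounts. Their mRNAs are among the most abundant of a cell and begin with a stretch of C and T bases, the terminal oligopyrimidine (TOP) tract, through which the kinase mTOR sets how strongly they are translated. Dividing and activated T cells make more ribosomes, and several of these genes, such as RPL5, RPL11 and RPS19, cause Diamond-Blackfan anaemia when 1 copy is lost.

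The bases around the annotated start are shown for the 4 genes of the family whose levels varied most over the 6 arrays and the 4 that varied least, among genes with a promoter listed. The first 4 below are the most variable, from Rps24 down, and the last 4 the least variable, from Rps3 up. Each sequence runs 5′ to 3′ on the gene's own strand from 40 bases before the start to 20 bases after it, from RefSeq on GRCm38.p6, with the most upstream listed start where there were several. Capitals mark the longest run of at least 6 C or T bases that touches the 10 bases on either side of the start.
Rps24, chr14:24490638-24490697, + strand: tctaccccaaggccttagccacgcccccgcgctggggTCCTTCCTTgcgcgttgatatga
Rpl19, chr11:98026670-98026729, + strand: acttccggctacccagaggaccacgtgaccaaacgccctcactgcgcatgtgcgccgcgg
Rps15, chr10:80292391-80292450, + strand: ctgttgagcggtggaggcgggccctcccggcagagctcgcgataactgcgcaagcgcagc
Rpl11, chr4:136053374-136053433, - strand: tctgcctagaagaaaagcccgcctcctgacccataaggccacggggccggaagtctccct
Rps3, chr7:99483690-99483749, - strand: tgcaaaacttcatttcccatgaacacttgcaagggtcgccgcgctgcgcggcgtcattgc
Rpl7a, chr2:26910767-26910826, + strand: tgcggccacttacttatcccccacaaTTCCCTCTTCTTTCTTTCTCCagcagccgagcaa
Rps2, chr17:24720023-24720082, + strand: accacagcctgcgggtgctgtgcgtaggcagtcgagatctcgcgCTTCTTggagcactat
Rpl10a, chr17:28328431-28328490, + strand: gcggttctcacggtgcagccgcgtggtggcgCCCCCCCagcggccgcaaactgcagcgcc

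Of the 8, Rpl7a had the longest such run, 21 bases across the start. Rpl19, Rps15, Rpl11 and Rps3 had none that touches the 10 bases on either side of the start. Runs farther from the start were not marked. A promoter was listed for 38 of the 43 genes, and 22 of them (57.9%) held such a run, against 29.0% of all 27025 genes with a promoter. The letters CCGGAA, the core bound by ETS factors, stood on either strand within the 300 bases from 250 before to 50 after the start in 23 of the 38 (60.5%), against 15.2% of all. The YY1 motif AAGATGGC stood on either strand in 3 of them (7.89%), against 2.87%, and a match to it can share its first bases AA with the end of CCGGAA. Listed starts can lie some bases away from the start used in these cells. A missing run thus says only that none touches the 10 bases on either side of the listed start.

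Probe sets of ribosomal protein genes were among the brightest on the arrays. The means of 33 of the 43 lay in the top 10% of all genes, and 27 had a mean of at least 12 on the log2 scale. Rps16 was the dimmest, at 4.38, 4.93 and 4.28 in treated mice 1, 2 and 3 and 4.73, 4.61 and 4.75 in untreated mice 1, 2 and 3. These levels are near the lowest on the array, and Rpl39 was the other gene with a mean below that of the median gene. Levels of different probe sets reflect their probes as well as the RNA, so each gene was compared only with itself between arrays.

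No ribosomal protein gene passed the test of treated against untreated Tregs. In limma, a moderated linear model fitted to all probe sets, 0 of 43 passed an adjusted p of 0.05 over all genes, where 0.0% of all genes passed, and 0 of 43 had an unadjusted p under 0.05, where 4.99% of all genes did. The treated and untreated values overlapped in all 43, while they did not overlap in 10.9% of all genes. The smallest adjusted p of the family was 0.914. Differences ran from −0.24 for Rps6 to +0.69 for Rpl19, with 30 of 43 (and 58.5% of all genes) above 0. The median was +0.12 over the family and +0.052 over all genes.

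The data do not show that the levels were equal. For 23 genes the 95% interval of the difference lay within 1 log2 unit on either side of 0. Rps3, at the entry of the mRNA channel, had the narrowest, −0.36 to 0.45. Rps24 had the widest, −1.71 to 2.08. Over the family the half-width of the interval had a median of 0.86.

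**Figure D1:**
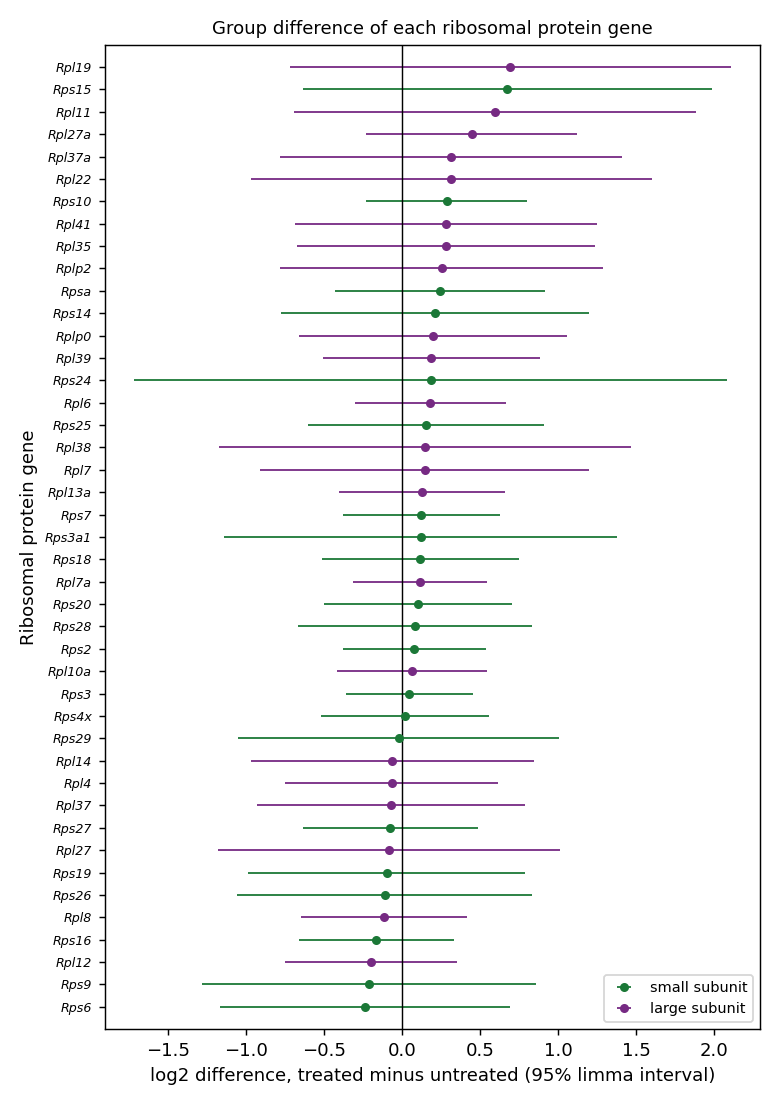
Log2 difference, treated minus untreated, of each of the 43 ribosomal protein genes (points) with its 95% limma interval (bars), coloured by subunit. Every interval includes 0, and 30 points lie above 0.

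One animal stood apart from the other 5. The SD between mice of a group had a median over the family of 0.39 in the treated and 0.52 in the untreated group. Untreated mouse 2 had the lowest level of the 6 arrays in 32 of 43 genes (74.4%), against 19.4% of all genes. Each gene's level in each array was set against that gene's mean over the 6 arrays. The median of these deviations over the family was −0.61 in untreated mouse 2. It was +0.29 and +0.17 in untreated mice 1 and 3 and +0.11, −0.028 and +0.12 in treated mice 1, 2 and 3. Over all genes the same medians lay between −0.044 and +0.053. After quantile normalization the family's value was −0.62 in untreated mouse 2 and +0.068 in treated mouse 2. The SD of the untreated group exceeded that of the treated group in 30 of 43 genes, compared with 34.8% of all genes.

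**Figure D2:**
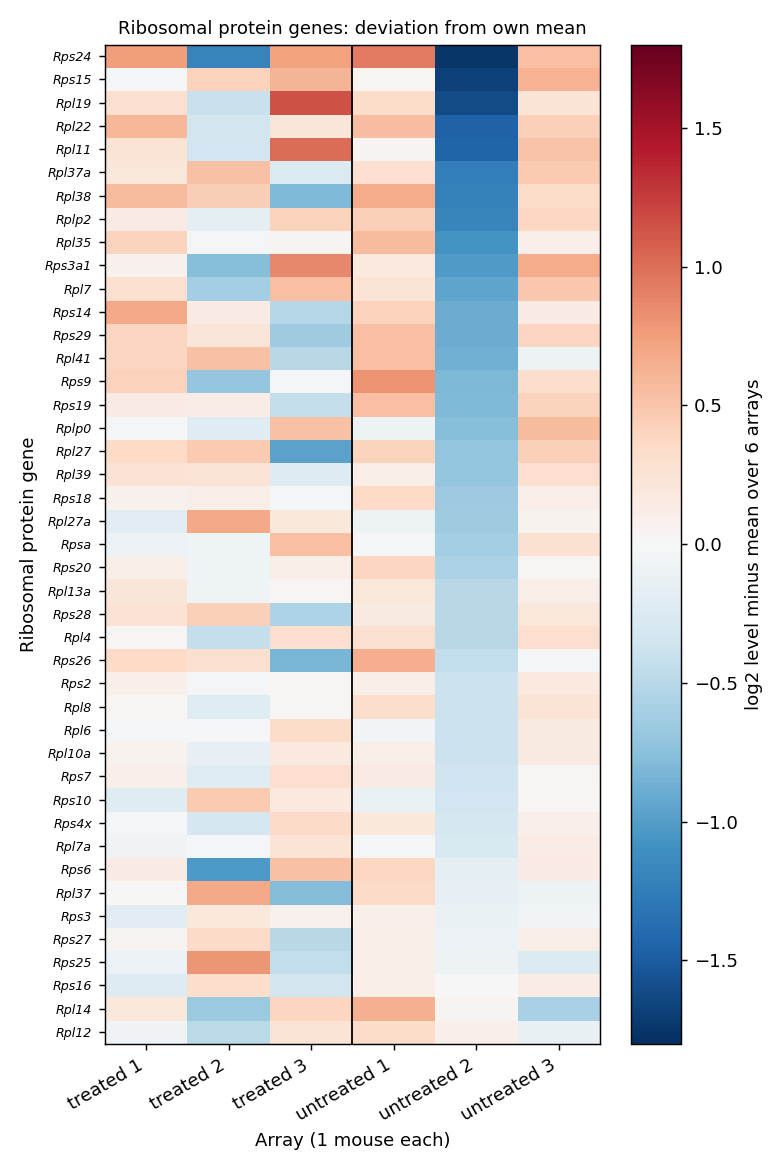
Log2 level of each ribosomal protein gene (rows) in each array (columns, 1 mouse each) minus the gene's mean over the 6 arrays, ordered by the value in untreated mouse 2. Blue is below the mean and red above, and 41 of 43 genes lie below their own mean in untreated 2.

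In 6 genes untreated mouse 2 lay more than 1 log2 unit below the next lowest mouse, which held for 0.473% of all genes. Rps15, a protein near the decoding centre of the small subunit, measured 10.30, 10.73 and 10.92 in treated mice 1, 2 and 3 and 10.35, 8.63 and 10.95 in untreated mice 1, 2 and 3. Untreated mouse 2 was thus 3.17-fold below the next lowest animal, while the other 5 lay close together. Rpl19, a large subunit protein that also bridges to the small subunit, measured 12.59, 11.89 and 13.45 against 12.63, 10.68 and 12.54. Here untreated mouse 2 was 2.31-fold below treated mouse 2, and treated mouse 3 was the highest. Rpl11, which with Rpl5 and 5S rRNA forms the particle that binds Mdm2, measured 11.59, 11.00 and 12.35 against 11.39, 9.90 and 11.85. Its order was the same at both ends as that of Rpl19. Rpl22, whose loss blocks the development of most T cells, measured 13.46, 12.53 and 13.08 against 13.42, 11.41 and 13.29, and 5 of its 6 values lay above 12. The other 2 of the 6 genes were Rpl35, beside the peptide exit tunnel, and Rplp2, of the stalk that recruits elongation factors, at 2.07-fold and 2.01-fold below the next lowest mouse.

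Without untreated mouse 2 the difference was near 0 in 3 of these 6 genes and below 0 in the other 3. Rps15 differed by +0.67 with all arrays (10.65 ± 0.32 against 9.98 ± 1.20, limma adjusted p = 0.917) and by +0.0013 without that mouse. Rpl11 differed by +0.60 (11.65 ± 0.67 against 11.05 ± 1.02, limma adjusted p = 0.920) and by +0.022 without it. Rpl19 differed by +0.69 (12.64 ± 0.78 against 11.95 ± 1.10) and by +0.057 without it, and Rpl22 by +0.31 and by −0.33. Rpl35 and Rplp2 differed by +0.28 and +0.25 with all arrays and by −0.19 and −0.28 without that mouse.

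Without untreated mouse 2 the family's median difference was −0.16, with 35 of 43 genes below 0 and 8 above 0, against 42.2% and 57.8% of all genes. The sign turned in 22 of the 43. The median was −0.16 for the small subunit and −0.15 for the large subunit, and +0.049 over all genes. Without mouse 2 of both groups it was −0.089, with 29 below 0 and 14 above 0, where 51.4% of all genes lay above 0. No gene of the family passed in either case by limma, where 0 of all genes did. Of the 43, 0 and 1 had an unadjusted p under 0.05, and the shares of all genes in these fits are not reported here. The direction of the family's median thus turned when 1 of the 6 animals was left out. Without untreated mouse 3, whose myeloid, neutrophil and B cell markers stood apart from those of untreated mice 1 and 2, the median was +0.21 with 34 genes above 0.

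**Figure D3:**
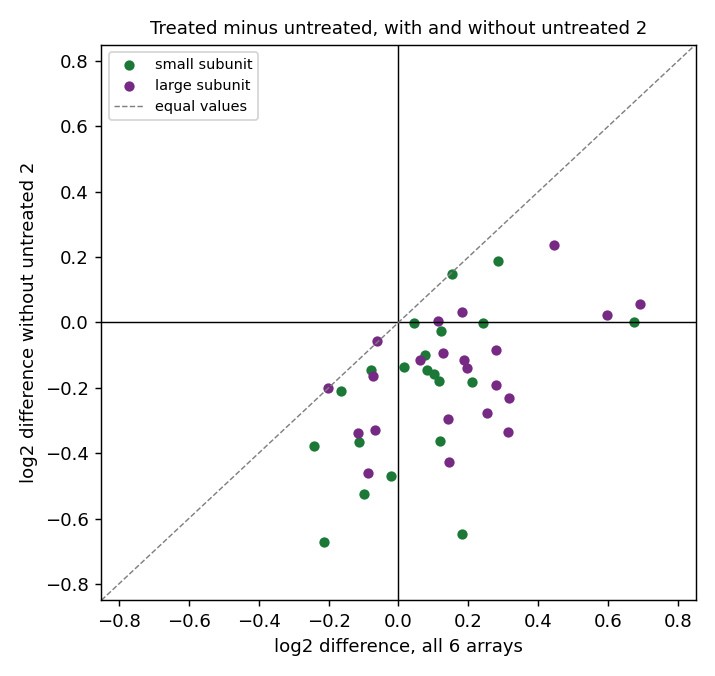
Log2 difference, treated minus untreated, of each ribosomal protein gene with all 6 arrays (horizontal axis) and without untreated mouse 2 (vertical axis), coloured by subunit; the dashed line marks equal values. All points except that of Rpl14 lie under the line, and 22 have opposite signs on the 2 axes.

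Between arrays of the same number, only mice 2 had a family median above 0. Treated mouse 2 minus untreated mouse 2 had a median of +0.55 with 40 of 43 genes above 0. The median was −0.10 for mice 1, with 34 below 0, and −0.044 for mice 3, with 24 below 0. All genes had medians of +0.0013, +0.10 and +0.0035 for mice 1, 2 and 3. By the array file names, numbers 1 and 2 lie close together and number 3 apart. Within numbers 1 and 2 the median was +0.23 with 35 genes above 0 and 0 of 43 passing, so the sign differed between the file number groups, with 1 mouse of each group at number 3.

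The genes did not all follow 1 order over the arrays. In 19 of 43 genes the 2 lowest arrays were treated mouse 2 and untreated mouse 2, against 10.4% of all genes. Rps24 was the most variable of these and of the family, at 12.39, 10.43 and 12.36 in treated and 12.57, 9.88 and 12.18 in untreated mice 1, 2 and 3. Both mice 2 lay well under the other 4 animals, 1 in each group, so the groups overlapped. Rps3a1, of the small subunit, measured 13.07, 12.23 and 13.86 against 13.16, 11.97 and 13.67, and Rps6, the substrate of S6 kinase, 9.42, 8.24 and 9.79 against 9.64, 9.11 and 9.42. Both were highest in treated mouse 3 and low in both mice 2, with treated mouse 2 lowest for Rps6.

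In 13 other genes the 2 lowest arrays were treated mouse 3 and untreated mouse 2, against 4.97% of all genes. These were Rpl27, Rpl37, Rpl37a, Rpl38, Rpl39, Rpl41, Rps14, Rps18, Rps19, Rps26, Rps27, Rps28 and Rps29, several of which encode the smallest ribosomal proteins. Rpl38, known for its part in the translation of Hox mRNAs, measured 12.76, 12.63 and 11.40 in treated and 12.85, 10.97 and 12.52 in untreated mice 1, 2 and 3. Rpl27 measured 12.92, 13.04 and 11.61 against 12.97, 11.86 and 13.00, and Rps26, at the mRNA exit, 13.08, 13.01 and 11.90 against 13.38, 12.27 and 12.68. By the choice of the 13 genes, each group held 1 low mouse. Over the 13 genes the differences ran from −0.11 for Rps26 to +0.31 for Rpl37a, with Rpl41 at +0.28, Rps14 at +0.21, Rpl38 at +0.15 and Rpl27 at −0.086. Treated mouse 3, low here, was the highest array in 11 other genes of the family, such as Rpl11, Rpl19 and Rps3a1.

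The actin control probe sets give how much brighter the 3′ end of the transcript was than the 5′ end, a sign of RNA length after amplification. This log2 difference was 1.42, 1.94 and 3.62 in treated mice 1, 2 and 3 and 1.31, 1.95 and 0.92 in untreated mice 1, 2 and 3. For Gapdh it was 3.38, 3.65 and 4.10 against 3.23, 3.87 and 2.02. Treated mouse 3 had the largest value of both. Untreated mouse 2, the other low array of the 13 genes, had the next largest, close to treated mouse 2 for actin. The part of these values in the levels of the 13 genes was not tested. Spiked hybridization controls averaged 13.58 in treated mouse 2 and 9.58 to 10.92 in the other arrays, and their part was not tested.

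By their chosen probe sets, a few genes were steady in all 6 mice. Rps3 measured 13.64, 14.04 and 13.93 in treated and 13.94, 13.73 and 13.80 in untreated mice, an SD of 0.15 over the 6 arrays. A dimmer Rps3 probe set was less steady, at 9.45, 9.21 and 9.16 against 9.70, 10.08 and 9.35, a difference of −0.44. It was highest in untreated mouse 2. Rpl7a, of the large subunit, measured 13.22, 13.26 and 13.53 against 13.25, 13.01 and 13.42, and Rps2, beside Rps3 at the mRNA entry, 13.43, 13.33 and 13.38 against 13.45, 12.95 and 13.51. In Rpl7a and Rps2 untreated mouse 2 was still the lowest array, while in Rps3 it was treated mouse 1. The SD over the 6 arrays had a median of 0.49 over the family and 0.28 over all genes. Over the 6 arrays the Pearson correlation between 2 genes of the family had a median of 0.53 over 903 pairs, against 0.013 over all pairs of genes. The pairs share the same 6 arrays, and untreated mouse 2 enters all of them.

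The subunits were both above 0 in the median. Of 21 small subunit genes 14 lay above 0 with a median of +0.082, and of 22 large subunit genes 16 with a median of +0.16. Untreated mouse 2 was the lowest array in 14 of the 21 and in 18 of the 22. In each of the role groups that follow, 0 genes passed the limma test and 0 had an unadjusted p under 0.05.

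Of the stalk that recruits elongation factors, Rplp0 and Rplp2 were measured. Rplp0 lay at 12.58, 12.37 and 13.12 in treated and 12.50, 11.82 and 13.17 in untreated mice 1, 2 and 3, and Rplp2 at 11.78, 11.45 and 12.04 against 12.06, 10.45 and 12.01. Untreated mouse 2 was the lowest in both, and the differences of +0.20 and +0.25 became −0.14 and −0.28 without it. Rplp0 also turned without treated mouse 3 (−0.019).

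Of the mRNA path of the small subunit, 6 of 7 listed genes were measured and 5 lay above 0, with a median of +0.079, and untreated mouse 2 was the lowest array in 3. Rps15 was described above, and Rps14 measured 13.31, 12.77 and 12.12 against 13.05, 11.74 and 12.78. Treated mouse 1 was the highest and untreated mouse 2 the lowest for Rps14. The laminin receptor gene Rpsa, whose product sits near the mRNA exit, measured 12.60, 12.63 and 13.24 against 12.67, 12.09 and 12.98. Its difference of +0.24 (limma adjusted p = 0.929) was −0.0026 without untreated mouse 2.

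Of the peptide exit tunnel, 4 of 8 listed genes were measured, Rpl19, Rpl22, Rpl35 and Rpl39, and all 4 lay above 0 and lowest in untreated mouse 2. The 6 measured of 11 Diamond-Blackfan anaemia genes had a median of +0.15, with 5 lowest in untreated mouse 2. Rps19, the gene most often affected in that disease, measured 13.07, 13.06 and 12.49 in treated and 13.47, 12.13 and 13.33 in untreated mice. Its difference was −0.10, and −0.52 without untreated mouse 2.

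The smallest limma p values of the family belonged to Rpl27a and Rps10. Next came Rps15, Rpl19 and Rpl11, described above, which had the largest differences of the family. Rpl27a, a large subunit protein, measured 7.45, 8.33 and 7.84 in treated and 7.55, 7.01 and 7.72 in untreated mice, a difference of +0.45 (interval −0.23 to 1.12, limma adjusted p = 0.914). Rps10, on the head of the small subunit, measured 12.41, 13.08 and 12.79 against 12.50, 12.28 and 12.65, a difference of +0.28 (interval −0.23 to 0.80, limma adjusted p = 0.914). In both genes treated mouse 2 was the highest and untreated mouse 2 the lowest. Rpl6 differed by +0.18, and there too untreated mouse 2 was the lowest. On the other side lay Rpl12 (−0.20), Rps16 (−0.17), Rps6 (−0.24), Rpl8 (−0.12), Rps9 (−0.21) and Rps27 (−0.078), each with an interval that includes 0. Rpl12, which helps to form the base of the stalk, measured 8.18, 7.75 and 8.49 against 8.57, 8.34 and 8.11, and was one of the 11 genes not lowest in untreated mouse 2.

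Single probe sets disagreed within genes. The 43 genes had 95 probe sets, 22 genes had more than 1, and in 15 genes another probe set had the opposite sign. Tested on their own by limma, 0 of 95 passed, where 0.0% of all probe sets with 1 symbol did. The groups did not overlap in 2 of 95 (10.6% of all probe sets), and the same 2 had an unadjusted p under 0.05 (4.89% of all probe sets). They are named here because of these values. The dimmest of the 3 Rpl22 probe sets measured 9.45, 8.71 and 9.11 in treated and 10.13, 10.54 and 9.92 in untreated mice 1, 2 and 3, a difference of −1.10 (interval −1.70 to −0.51, limma adjusted p = 0.938 over all probe sets). It was highest in untreated mouse 2, whereas the 2 brighter Rpl22 probe sets were lowest there and differed by +0.31 and +0.40. A dim probe set of Rps20 measured 5.35, 5.12 and 5.00 against 5.83, 5.78 and 5.41, a difference of −0.52, at a level near the bottom of the range, while the chosen Rps20 probe set differed by +0.10. Rpl22 was not alone in such a reversal. Of the 4 Rpl41 probe sets, the 2 dimmest differed by −0.66 and −0.48 and were highest in untreated mouse 2. The chosen one (+0.28) and the remaining one (+0.025) were lowest there.

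Ribosomal protein genes have many processed copies in the genome, and a probe set with 1 symbol may still bind RNA of a copy. Of the 43 chosen probe sets, 13 end in _x_at, Affymetrix's mark for probes that can bind other transcripts, and 2 in _s_at, for probes shared by several transcripts. The median difference was +0.14 for the 13, +0.097 for the 16 in _a_at and +0.045 for the 12 with no letter. With probe sets without a letter for every gene that has one, 22 genes remained, 9 lay above 0 and the median was −0.070. Some of these were far dimmer than the chosen probe sets. That of Rps20 had group means of 5.16 and 5.67, against 13.02 and 12.92 for the chosen one. Suffix, brightness and the set of genes changed together here, and their parts in the change of sign were not tested. With the mean of all probe sets of a gene the median was +0.088, and Rpl22 differed by −0.13 and Rps6 by +0.14.

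The probe sets with several symbols carried a separate reading of the same family. Of these, 110 held a symbol of the kind described above, such as Rpl3 or Rps12, beside pseudogenes or neighbours, and no gene was named from them. By limma 0 of 110 passed among probe sets with several symbols, where 0.0% of probe sets with 1 symbol passed. Of the 110, 2 had an unadjusted p under 0.05, against 4.89% of probe sets with 1 symbol. Shares over all 932 probe sets with several symbols are not reported here. The median difference of the 110 was +0.16 with 86 above 0, where 58.5% of all genes lay above 0. Untreated mouse 2 was the lowest array in 81 of the 110 (73.6%), against 18.7% of probe sets with 1 symbol. The median deviation there was −0.80. Without untreated mouse 2 the median of the 110 was −0.15 with 78 below 0. These probe sets were not used in the choice of genes, but they measured the same 6 RNA samples and may bind the same transcripts.

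Other genes of protein synthesis were set beside the family. Of 76 mitochondrial ribosomal protein genes, which build the separate ribosome of mitochondria, 0 passed, 56 lay above 0 and the median was +0.18. Untreated mouse 2 was the lowest in 44 of them (57.9%), with a median deviation of −0.44. Without it their median was +0.0076. Mrps9 differed by −0.45 and Mrpl43 by +0.60, the smallest p values of that list. Fau, which encodes another small subunit protein fused to a ubiquitin-like protein, measured 12.46, 12.26 and 11.81 in treated and 12.58, 10.88 and 11.86 in untreated mice, lowest in untreated mouse 2 by far. Of 6 measured paralogs outside the family, such as Rpl22l1, 4 were lowest in untreated mouse 2. Rpl3l differed by +0.29 and Rpl7l1 by −0.34, neither past the test.

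A list of translation factors and other genes with TOP mRNAs, such as Vim, Npm1 and Nap1l1, had its lowest medians in both mice 2. Of 18 measured, 0 passed, 10 lay above 0 and the median was +0.074. The median deviation of the 18 was −0.43 in treated mouse 2 and −0.33 in untreated mouse 2. After quantile normalization it was −0.24 in treated mouse 2 and −0.34 in untreated mouse 2. The RNA-binding protein gene Hnrnpa1 measured 11.01, 10.45 and 10.63 in treated and 11.18, 11.14 and 11.30 in untreated mice, a difference of −0.51 (limma adjusted p = 0.914), and its groups did not overlap. The initiation factor gene Eif4b differed by −0.46, and its groups did not overlap either, which held for 3 of the 18 and for 10.9% of all genes. Eef1a1, the elongation factor that delivers tRNAs, differed by −0.18.

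Regulators of ribosomal protein synthesis had 0 of 14 past the test, with 12 above 0 and a median of +0.13. Eif4ebp1, the mTOR target that blocks translation initiation, measured 9.11, 8.48 and 9.30 in treated and 8.63, 7.58 and 7.65 in untreated mice, a difference of +1.01 (interval 0.20 to 1.82, limma adjusted p = 0.914), with treated mouse 2 below untreated mouse 1. The S6 kinase gene Rps6kb2 differed by +0.50. Factors of RNA polymerase I, which transcribes ribosomal RNA, and of 5S rRNA were listed together. These had 0 of 13 past the test and a median of +0.068, with Ubtf at +0.49 and Taf1c at +0.47. Of 8 measured other ubiquitous genes, 0 were lowest in untreated mouse 2. Of these, 7 lay above their own mean there and Actb lay below it, at 13.49 against 14.06 and 14.33 in untreated mice 1 and 3. Their median deviation there was +0.21, and all 8 differences lay below 0 with a median of −0.18, such as Hprt at −0.39, Actb at −0.38 and Tbp at −0.27. Eef1a1 is in both this list and that of the genes with TOP mRNAs.

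**Figure D4:**
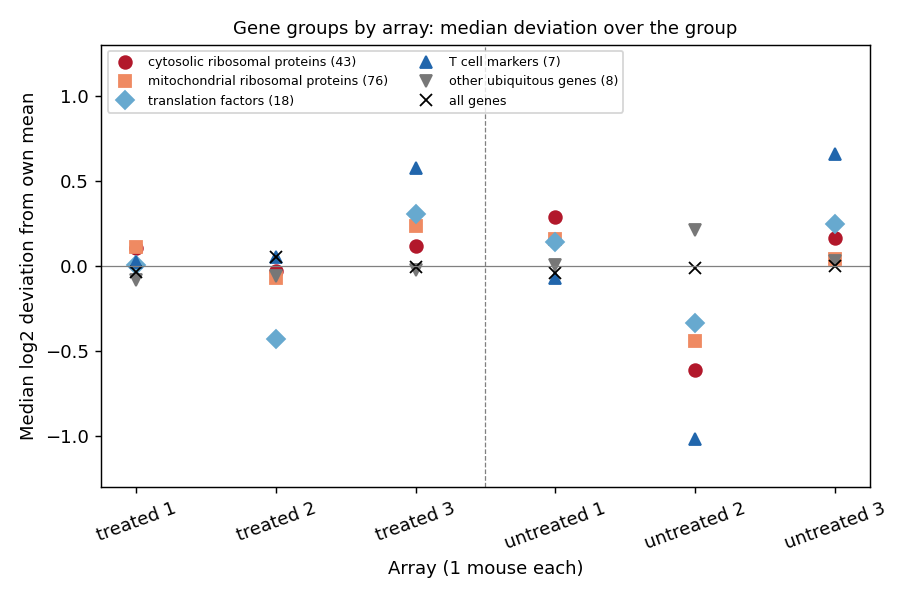
Median, over each gene group, of the log2 deviation from each gene's mean over the 6 arrays, by array (1 mouse each). The group marked translation factors also holds other genes with TOP mRNAs. In untreated 2 the cytosolic ribosomal proteins (−0.61), the mitochondrial ones (−0.44), the translation factors (−0.33) and the T cell markers (−1.02) lie below 0, and all genes (−0.014) near 0.

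Markers of T cells moved with the family in untreated mouse 2. Of 7 measured T cell markers, all 7 were lowest there, and their mean was 10.34, against 11.23 and 11.84 in untreated mice 1 and 3 and 11.38 to 11.95 in the treated mice. Cd3d, of the receptor complex, measured 12.33, 10.55 and 12.88 in untreated mice 1, 2 and 3, and Cd3e 11.82, 11.62 and 11.78. Foxp3 itself measured 11.43, 11.46 and 12.44 in treated and 10.75, 9.95 and 11.07 in untreated mice, well above the median gene in every array and lowest in untreated mouse 2. Of 8 Treg markers, Foxp3 included, 3 were lowest there. Between the groups, 4 of the 8 differences lay above 0 and 4 below. They ran from −2.76 to +1.19, with a median of −0.0065. Other cells also left signal despite the sort. The mean of 12 B cell markers was 7.08 to 7.16 in treated mice and 10.12, 10.22 and 7.74 in untreated mice. The mean of 7 neutrophil markers was 10.99 to 12.57 in treated mice and 12.18, 11.67 and 6.75 in untreated mice, and that of 13 myeloid markers 8.26 to 9.34 and 8.81, 8.83 and 6.88. The part of these cells in the ribosomal protein levels was not tested. In such bulk samples fewer cells of a type and less RNA per cell cannot be told apart.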

How the data were processed

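RNA from sorted Tregs of 6 mice had been amplified in 2 rounds, per the labels' protocols, and hybridised to 1 array each. RMA in GenePattern was the authors' processing, per the series' design text. Each deposited number is an RMA-normalized intensity, not log-transformed, between 5.47 and 29584.9, and array medians ran from 85.3 to 92.4. RMA brings probe intensities of all arrays to 1 common distribution, so a change shared by most transcripts could not be seen. Of 45101 probe sets, 64 controls were left out. Log2 was taken and limma 3.58.1 in R 4.3.3 was fitted to 45037 probe sets. P-values were adjusted by Benjamini-Hochberg over 18193 genes, 1 probe set each, named from the platform annotation (34945 probe sets with 1 symbol, 932 with several, 9160 with none). Of the 34945, 34741 matched RefSeq by gene identifier. The script was tested on simulated data. Arrays limit precision by their number.

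The genes and lists were chosen with earlier results of these data known. Named were genes past the threshold, the 6 with the smallest p in each direction, Rplp0, Rpsa, Rps6, Rpl5 (not measured alone), Rpl11 and Rpl22, and 2 per list; Rps24, Rps3, Rpl7a, Rps2 and the genes used to show the orders over arrays were chosen after their values were seen. Alternatives covered the replicate block, age, array file number, normalization, offset, filter, weights, probe set choice and leaving out each array. Figures used matplotlib 3.10.9 in Python 3.11.15.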

Additional observations from a re-analysis of the deposited data

How the results depend on the processing

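Under all alternatives run, 0 ribosomal protein genes passed. The median difference of +0.12 turned to −0.16 without untreated replicate 2, to −0.089 without mouse 2 of both groups and to −0.070 with probe sets without a letter suffix. Leaving out 1 array at a time gave −0.16 to +0.24, and the remaining alternatives with a median gave the same sign, with +0.041 (24 genes above 0) with age as a covariate and +0.060 (25 above 0) with array weights. With the replicate number as a block the median was 0.12 and 0 genes of the family passed, where 0 of all genes did. By limma 2 of the 43 had an unadjusted p under 0.05 in that fit, and the share of all genes is not reported here. Deviations of same-numbered arrays correlated at 0.51, 0.010 and 0.10, and those of differently numbered arrays from −0.47 to 0.23. Treated mouse 2 correlated best with untreated mouse 3 (0.23). So few correlations cannot show whether the numbers pair the mice. Of 311 values of the 15 named genes under alternatives, 16 had the opposite sign and none passed (smallest limma adjusted p 0.673).
Signs turned as follows, and the cause was not tested. With the mean of all probe sets Rpl22 was −0.13 and Rps6 +0.14. Without mouse 2 of both groups Rpl22 was −0.088, Rps15 −0.040 and Rps6 +0.076. With probe sets without a letter Rps10 was −0.0065, and with numbers 1 and 2 alone Rps27 was +0.19.
Leaving out 1 array at a time gave −0.33 to +0.67 for Rpl22, −0.34 to +0.013 for Rpl8, −0.14 to +0.53 for Rplp0, −0.27 to +0.16 for Rps27, −0.56 to +0.22 for Rps6, −0.67 to +0.14 for Rps9 and −0.0026 to +0.44 for Rpsa; the other 8 named genes kept their sign.
The 3 arrays a group gave intervals with a median half-width of 0.86 over the family, and nothing in the labels says whether mice shared a litter. Among all genes 0 passed in the reported fit, 1 with median centring, 1 with probe sets without a letter suffix, 5 with array weights, 32 without untreated replicate 3 and 18 with numbers 1 and 2 alone.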
